A study of Sus scrofa with 15 samples.

Results

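Transcript levels on day 4 of culture were compared with those on day 2 in pig granulosa cells, which surround the oocyte in the ovarian follicle and make estradiol and inhibin. The comparison used 6 of the 15 arrays of the series, 3 of each day, and all 23999 probe sets that are not array controls. The series followed granulosa cells taken from ovarian follicles through 7 days of culture, with arrays on days 0, 1, 2, 4 and 7, while the cells lost their differentiated state. Both groups are described as dedifferentiating porcine follicular granulosa cells, with no genotype or added agent named, and they differ in the labelled time in culture, 2 or 4 days. The arrays of a day are called biological replicates, but their animals or dishes are not stated, so a p-value here reflects the variation among arrays, which may be technical in part. Age, breed and culture medium are not given in the sources used here.

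A cell that enters division first licenses its replication origins and makes deoxynucleotides and replication proteins, then makes the cyclins, kinases and spindle proteins of mitosis. Genes of the first kind are driven largely by E2F factors, and those of the second by the MuvB complex with MYBL2 and FOXM1. Granulosa cells divide in the growing follicle under follicle-stimulating hormone, stop when they luteinize, and divide again when grown attached to plastic in serum. Transcript levels alone were measured here; cells in division were not counted.

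Between day 2 and day 4, 32 of 72 measured genes of mitosis and 8 of 50 of DNA replication rose. Of 188 division genes measured (376 were listed), 47 rose and 1, BTG1, fell, with a median log2 change of 0.40. Cyclin B2 (CCNB2) rose 2.80 ± 0.26 on the log2 scale and topoisomerase II alpha (TOP2A) rose 2.18 ± 0.31 (change ± SE of the fit, n = 3 arrays per day). In the same interval 11 of 16 smooth muscle contractile genes rose, and 5 of 27 granulosa identity genes fell.

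A call needed a log2 change (day 4 mean minus day 2 mean) of at least 1 in size, or 2-fold, together with a limma p under 0.05 after Benjamini-Hochberg adjustment. In all, 608 probe sets were called, 2.53% of those tested. Of these, 479 (2.00%) were higher on day 4 and 129 (0.538%) were lower. The median change of all probe sets was -0.04. Among 6765 genes with a named probe set, 180 rose (2.66%) and 42 fell (0.621%), and 335 called probe sets carried no single gene name. The list counts are of named genes, so they stand beside these shares. The arrays of the days did not overlap for 606 of the 608. Over all probe sets, the arrays of the days did not overlap in 17.5%, in either direction, so non-overlap is common with 3 arrays a day. Rises outnumbered falls more among large changes: 139 probe sets were at least 4-fold higher and 18 at least 4-fold lower.

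Array controls set day 4 replicate 2 apart. On it the 3′ probe set exceeded the 5′ one by 2.12 on the log2 scale for beta-actin, 2.14 for GAPDH and 3.52 for the dap spike-in, against highest values of 1.68, 1.16 and 1.77 on the other 14 arrays. Its 18S ribosomal signal of 9.78 was the lowest of the 15. Without it 575 probe sets (2.40%) were called, 491 of them among the 608. A call of a gene named below that changes without this array is given in both ways. The beta-actin difference was also lower on replicate 1 than on replicates 2 and 3 of every day. Levels are log2 RMA intensities of 1 probe set per gene, and the lower quartile of the day 2 arrays lay between 4.41 and 4.64, that of the day 4 arrays between 4.49 and 4.53. Levels near or under it carry little order, and changes into it may be understated. In these bulk samples fewer cells of a type and less RNA per cell cannot be told apart.

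**Figure D1:**
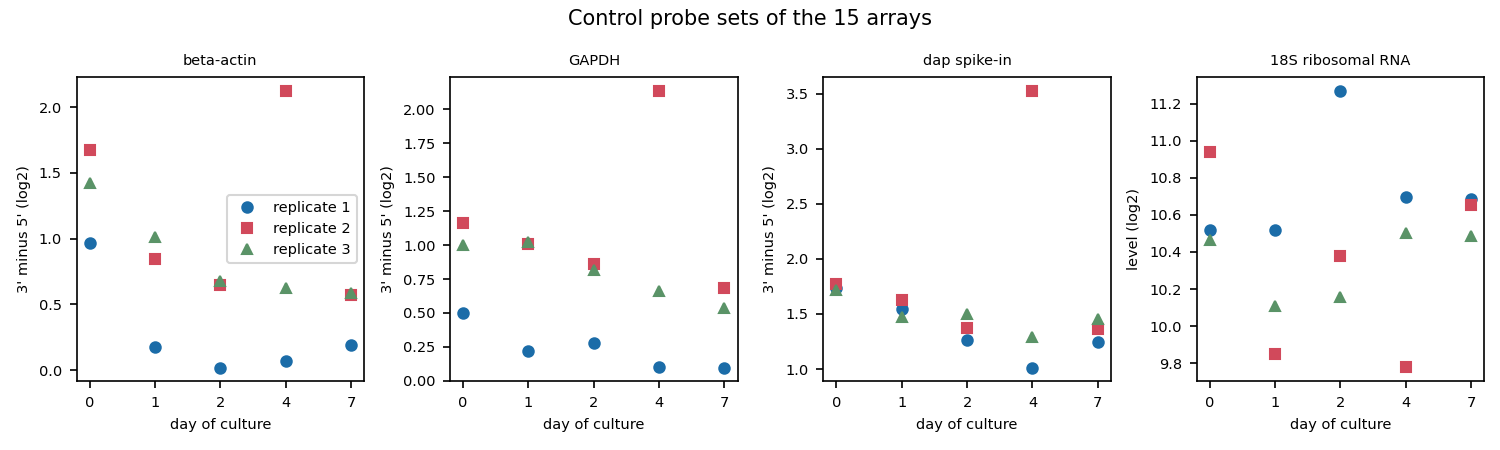
Control probe sets of the 15 arrays by day of culture (x axis, days): the 3′ minus 5′ difference of beta-actin, GAPDH and the dap spike-in and the level of 18S ribosomal RNA (y axes, log2), with 1 point per array and the symbol marking the replicate number. Day 4 replicate 2 lies above the other 14 arrays in the 3 difference panels, at 2.12, 2.14 and 3.52.

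The cell type was checked on 10 granulosa markers. Compared with day 0, 4 of them (INHA, HSD17B1, NR5A2 and AMH) were already lower on day 2 and FSHR was higher, by 1.23. INHA, the inhibin alpha subunit, had a day 0 mean of 14.26 and day 2 levels of 10.97, 10.03 and 9.62. FOXL2, a transcription factor that maintains granulosa identity, lay between 5.58 and 5.92 on the day 2 arrays and between 5.42 and 5.85 on day 4. CYP19A1, the aromatase that makes estradiol, was low throughout, at 4.60 to 5.10 on day 2 and 4.79 to 5.29 on day 4, after a day 0 mean of 5.26. Neither passed the test between day 2 and day 4 (adjusted p = 0.814 and 0.963, limma). The labelled cells thus still held granulosa transcripts on day 2, some of them far under their fresh level.

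Of 7 measured E2F, RB, MuvB and FOXM1 factors, 1 rose (14.3%, beside 2.66% of all named genes). It was MYBL2, the B-Myb subunit of the activating MuvB complex. Its levels were 8.23, 8.65 and 9.07 on day 2 and 10.92, 10.19 and 10.24 on day 4, with no overlap. The change was 1.80 ± 0.28 (adjusted p = 0.00225, limma). FOXM1, which acts with that complex on mitotic genes, read 5.50, 6.64 and 6.60 on day 2 and 6.82, 6.64 and 6.55 on day 4. These overlap, and the change of 0.43 ± 0.30 did not pass the test (adjusted p = 0.640).

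No G1 cyclin or kinase of the 5 measured was called. CCND2, the D cyclin induced by follicle-stimulating hormone in granulosa cells, read 9.47, 10.31 and 10.02 on day 2 and 9.66, 10.87 and 10.63 on day 4, with a change of 0.46 ± 0.50. CDK2, the kinase of the G1 to S transition, changed by 0.56 ± 0.23 (adjusted p = 0.279), although its arrays did not overlap. MYC, a transcription factor of cell growth, read 9.81, 9.60 and 9.67 on day 2 and 9.55, 9.13 and 9.44 on day 4, a change of -0.32 ± 0.18 that was not called (adjusted p = 0.493). Its day 0 mean was 6.34, and its day 4 level was 3.04 above day 0. The 26 genes of growth and ribosome biogenesis had no call and a median of 0.10.

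Of 19 cell cycle inhibitors and quiescence genes, 1 rose, 1 fell, and the median was -0.15. BTG1, an antiproliferative gene of quiescent cells, read 11.77, 12.01 and 12.05 on day 2 and 10.52, 10.85 and 11.06 on day 4. It fell by 1.13 (SE 0.19, adjusted p = 0.00301), with no overlap, but was not called without day 4 replicate 1, at -0.98. Its relative BTG2 had non-overlapping arrays and a change of -1.38 ± 0.45 that missed the threshold (adjusted p = 0.131). CDKN1A, the p21 inhibitor of cyclin-dependent kinases, read 11.23, 9.94 and 9.81 on day 2 and 10.37, 9.71 and 9.70 on day 4, which overlap (change -0.40 ± 0.46). The riser of this list, CDKN3, is a phosphatase that acts on cyclin-dependent kinases and changed by 1.43 ± 0.21.

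Of 14 genes that license replication origins, 4 rose and none fell, and the median was 0.65. MCM3, a subunit of the replicative helicase, read 5.62, 5.76 and 5.98 on day 2 and 7.73, 7.32 and 7.38 on day 4. It rose 1.69 ± 0.24 (adjusted p = 0.00114, limma). ORC1, of the origin recognition complex, rose 1.83 ± 0.29, from 6.27, 5.70 and 6.66 to 8.65, 7.72 and 7.76. CDC45, which activates the helicase, read 6.39, 6.39 and 6.73 on day 2 and 8.23, 7.91 and 8.17 on day 4, with a rise of 1.60 ± 0.17 (adjusted p = 0.000155). The arrays of these genes did not overlap, and those of the same day lay closer together for CDC45 than for ORC1. MCM2 rose 1.39 ± 0.23. MCM4 and MCM5, of the same helicase ring, changed by 0.27 and 0.76 and were not called (adjusted p = 0.680 and 0.0890).

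At the replication fork 3 of 22 genes rose. PCNA, the sliding clamp of DNA polymerases, read 9.03, 8.41 and 8.76 on day 2 and 10.67, 9.86 and 9.92 on day 4. It rose 1.41 ± 0.21 (adjusted p = 0.00139). PCLAF, a PCNA-binding factor, showed the largest rise of any division gene measured: 7.41, 6.59 and 7.29 on day 2 against 10.79, 9.66 and 9.66 on day 4, a change of 2.94 ± 0.36 (adjusted p = 0.000357). Both sets of arrays were apart. POLE2, a subunit of DNA polymerase epsilon, rose 1.35 ± 0.25 and was not called without day 4 replicate 1, at 0.99.

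For deoxynucleotide supply, RRM2, the small subunit of ribonucleotide reductase, was the 1 called gene of 14. It read 7.55, 6.88 and 7.38 on day 2 and 10.74, 9.13 and 9.41 on day 4 and rose 2.49 ± 0.39 (adjusted p = 0.00231). RRM2 also rose in the step before, by 2.18 from day 1 to day 2, with means of 8.80 on day 0 and 5.09 on day 1. Thymidylate synthase (TYMS) read 7.89, 6.74 and 6.90 on day 2 and 9.08, 6.70 and 8.25 on day 4. The 6.70 of day 4 replicate 2 lies within the day 2 values, and the change of 0.83 ± 0.51 did not pass (adjusted p = 0.553).

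The mitotic lists held most of the rises. Of 72 measured genes of mitotic entry, kinetochore, spindle, chromosome structure and mitotic exit, 32 rose and none fell, with a median of 0.88, beside medians of -0.04 for all probe sets and -0.02 for all named genes. For replication, licensing, fork and nucleotide genes together, 8 of 50 rose, with a median of 0.40. The difference between the lists was not tested.

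Of 19 genes of mitotic entry, 10 rose. Cyclin B1 (CCNB1), the activator of the mitotic kinase, read 8.30, 7.91 and 8.24 on day 2 and 11.27, 9.65 and 10.11 on day 4. It rose 2.20 ± 0.35 (adjusted p = 0.00258). CCNB2 read 5.58, 4.85 and 5.46 on day 2 and 8.68, 7.92 and 7.70 on day 4 (adjusted p = 6.33e-05). Neither gene's arrays overlap between days, and replicate 1 is the highest array of day 4 for both.

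Several mitotic kinases were among these 10, while PLK2 (-0.47), PLK3 (0.10) and PKMYT1 (0.60) were not called. Aurora kinase A (AURKA), which matures centrosomes, read 6.14, 6.51 and 6.63 on day 2 and 8.89, 7.86 and 8.10 on day 4, a rise of 1.86 ± 0.27 (adjusted p = 0.00141). Polo-like kinase 1 (PLK1) rose 1.84 ± 0.25, from 5.83, 5.48 and 6.36 to 8.34, 7.35 and 7.51. MELK, a kinase of dividing cells, rose 2.33 ± 0.30, and NEK2, which separates centrosomes, rose 1.82 ± 0.24. AURKB, the chromosomal passenger kinase, rose 1.24 ± 0.25 but was not called without day 2 replicate 2 (1.18) or without day 4 replicate 1 (0.88). WEE1, which holds the mitotic kinase inactive, had a lower mean by 0.62 (SE 0.16), short of the minimum change at an adjusted p of 0.0435.

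Cyclin A2 (CCNA2), of S phase and mitotic entry, depended on day 4 replicate 2. It read 5.96, 5.34 and 5.27 on day 2 and 8.47, 5.54 and 6.86 on day 4, so the days overlap, and the change of 1.43 ± 0.54 was not called (adjusted p = 0.208). Without that array the change was 2.14 and called. CCNA2 was also called with replicate number as a block, as were HMMR, HMGB2, SKA2 and GAS6 of the division lists.

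Kinetochore and centromere genes gave 9 rises among 18 measured. NDC80, which binds microtubules at the kinetochore, read 5.52, 5.36 and 5.55 on day 2 and 8.15, 7.09 and 7.23 on day 4, a rise of 2.01 ± 0.25 (adjusted p = 0.000364). Survivin (BIRC5), of the chromosomal passenger complex, rose 2.16 ± 0.30, from 6.81, 6.21 and 6.50 to 9.34, 8.08 and 8.57. CENPF, a large kinetochore protein of late interphase and mitosis, read 7.15, 7.44 and 7.72 on day 2 and 9.37, 9.08 and 8.92 on day 4 and rose 1.69 ± 0.21. In each case the lowest day 4 array lay above the highest day 2 array. The remaining called genes of the list were SKA1, NUF2, CENPT, CENPI, MAD2L1 and CENPH, with rises from 1.06 (CENPH) to 2.02 (SKA1). Calls of NUF2 were lost without day 2 replicate 2 (1.63) or 3 (1.60). MAD2L1 and CENPH lost theirs without day 2 replicate 2 (1.18 and 0.96) or day 4 replicate 1 (0.95 and 0.92).

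In the list of spindle and cytokinesis 7 of 15 rose, with a median of 1.45. DLGAP5, a spindle assembly factor, rose 2.40 ± 0.29 (adjusted p = 0.000349), and CEP55, which acts in abscission, rose 2.22 ± 0.36. RACGAP1, of the centralspindlin complex, read 8.21, 7.52 and 8.0 on day 2 and 10.53, 9.14 and 9.46 on day 4 and rose 1.80 ± 0.31 (adjusted p = 0.00388). NUSAP1, a spindle microtubule binder, rose 1.56 ± 0.34 but was not called without day 2 replicate 2 (1.44) or 3 (1.45) or day 4 replicate 1 (1.13). HMMR, another spindle factor, read 5.13, 3.66 and 4.18 on day 2 and 7.94, 4.80 and 5.79 on day 4. Its days overlap and its change of 1.85 ± 0.66 was not called with all arrays (adjusted p = 0.171).

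Chromosome structure and mitotic exit added 6 rises. TOP2A, which untangles sister chromatids, read 7.45, 7.03 and 7.57 on day 2 and 10.37, 9.0 and 9.21 on day 4 (adjusted p = 0.00114). PTTG1, the securin that guards separase, rose 1.76 ± 0.24, and the condensin II subunit NCAPD3 rose 1.51 ± 0.24. UBE2C, the ubiquitin-conjugating enzyme of the anaphase-promoting complex, read 7.06, 6.63 and 7.00 on day 2 and 9.93, 8.57 and 9.05 on day 4, a rise of 2.28 ± 0.30 (adjusted p = 0.000629). CDC20, its activator, rose 1.83 ± 0.25. The 12 genes of that complex and of mitotic exit had a median of 0.03, and these were its 2 calls.

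Among 22 genes of histones, nuclear lamina and chromatin, 2 rose: ASF1B, a histone chaperone of dividing cells, by 1.97 ± 0.27 and the importin KPNA2 by 1.05 ± 0.24. Of 14 repair and checkpoint genes, RAD51AP1, CHEK1 and CLSPN rose by 1.83, 1.44 and 1.33. CHEK1 encodes the kinase of the replication checkpoint and CLSPN its adaptor claspin. KPNA2 was not called without day 2 replicate 2 (0.96) or 3 (0.98) or day 4 replicate 1 (0.82). CLSPN was not called without day 2 replicate 2 (1.32) or day 4 replicate 1 (0.93), and CHEK1 without day 2 replicate 2 (1.22).

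**Figure D2:**
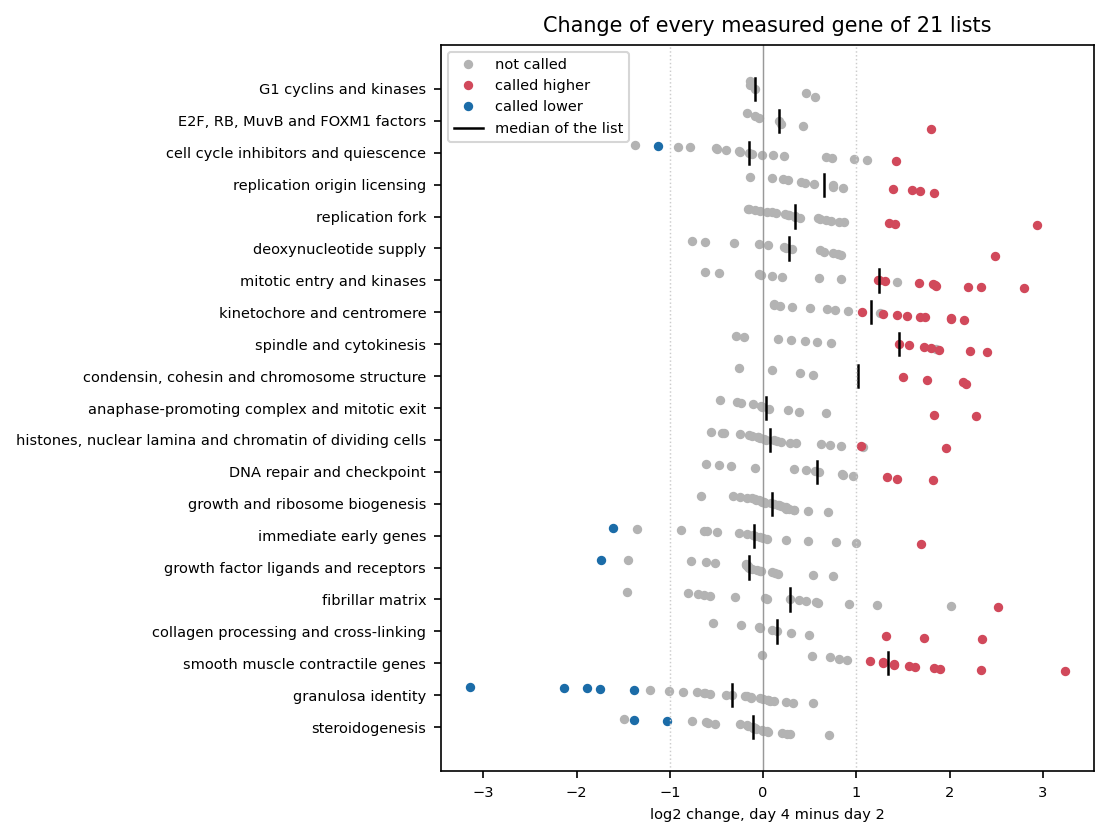
Log2 change, day 4 minus day 2 (x axis), of every measured gene in 21 gene lists (y axis), with 1 point per gene, called genes in colour and the list median as a black bar. The mitotic lists, with medians of 1.25, 1.16 and 1.45 for entry, kinetochore and spindle, and the smooth muscle list, with 1.35, lie right of 0, while ribosome biogenesis is centred at 0.10.

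The size of the rise differed among arrays. Of the 47 risers, day 4 replicate 1 was the highest day 4 array in 47 and replicate 2 the lowest in 35. The mean of the 72 mitotic genes, as a log2 difference from the day 0 mean, was -1.39, -1.57 and -1.43 on the day 2 arrays and -0.05, -0.77 and -0.67 on the day 4 arrays. The 3 day 4 values lie above the 3 day 2 values, and replicate 1 stands clear of the others. Between arrays of the same number the mitotic mean differed by 1.34 for replicate 1, 0.80 for replicate 2 and 0.76 for replicate 3. Replicate 1 also had the lowest beta-actin 3′ to 5′ difference on both days, 0.02 and 0.07, against 0.63 to 2.12 on the other arrays of these days. The part of array quality in the size of the rise was not tested.

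The division genes were also counted without either array. Without day 4 replicate 2, 51 of the 188 genes rose, the 47 among them, and the median was 0.52. The added genes were CCNA2, HMGB2, HMMR and SPC25. With replicates 2 and 3 of every day alone, 41 of the 47 were called. Without day 4 replicate 1, 39 of the 188 rose, as they did without day 2 replicate 2. In all 6 fits that left out 1 array, 37 of the 47 were called. Of the 16 risers with more than 1 probe set, 3 had another probe set that was also called higher, and the probe set used was the one with the highest mean.

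**Figure D3:**
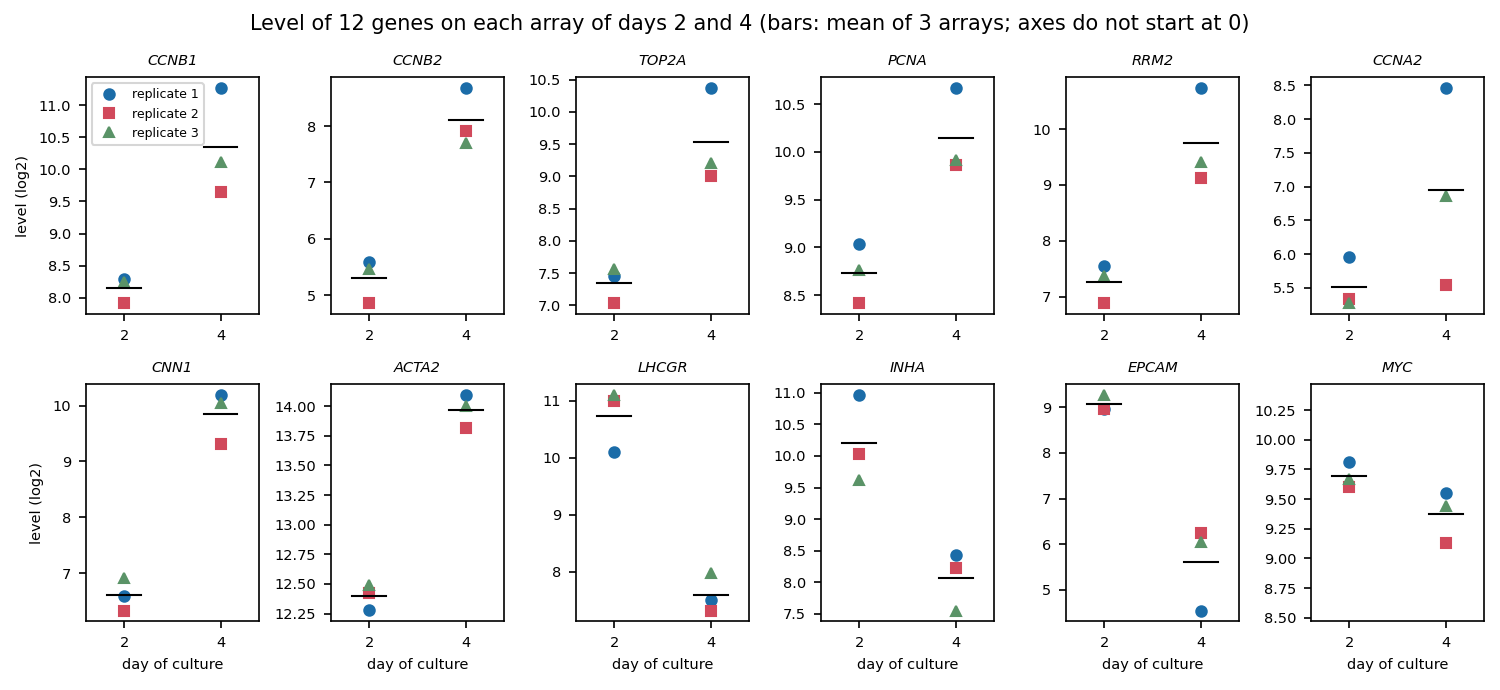
Levels of 12 genes (y axes, log2 RMA intensity, not starting at 0) on the 3 arrays of day 2 and the 3 arrays of day 4 (x axis, days), with 1 symbol per replicate number and bars at the mean. CCNA2 is the division gene shown whose day 4 replicate 2, at 5.54, falls among the day 2 values, and MYC has a change of -0.32 that was not called.

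Against day 0, 74 of the 188 division genes were lower on day 2, beside 432 of 6765 named genes and 6.09% of all probe sets. The median of the division genes was -0.73. On day 4, 28 of the 188 were lower than on day 0, beside 438 of 6765 named genes and 6.59% of all probe sets. Another 9 were higher, beside 829 named genes and 9.29% of all probe sets, and the median of the 188 was -0.35. These comparisons share the day 0 arrays with each other and their later arrays with the comparison of day 4 with day 2, so they are set side by side as values.

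On day 4, 14 of the 72 mitotic genes were lower than on day 0 and 1 was higher. Of the 50 replication genes, 1 was lower and 4 were higher, and the difference between these lists was not tested. Over all named genes 438 of 6765 were lower and 829 higher, so neither replication count exceeds the share over all named genes. TOP2A had day means of 11.52 on day 0, 8.93 on day 1, 9.53 on day 4 and 9.38 on day 7, and its day 4 level remained 1.99 under day 0 (adjusted p = 0.000220, limma). CCNB1 had means of 11.03 on day 0 and 9.17 on day 1, and 10.25 on day 7. PCNA on day 4 differed from day 0 by -0.06. RRM2 had means of 9.76 on day 4 and 9.67 on day 7, above its day 0 mean of 8.80, and this difference was not called. The replication mean of 50 genes, as a difference from day 0, was -0.50, -0.77 and -0.63 on day 2 and 0.21, -0.26 and -0.19 on day 4. Replicate 1 is again the day 4 array above 0.

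**Figure D4:**
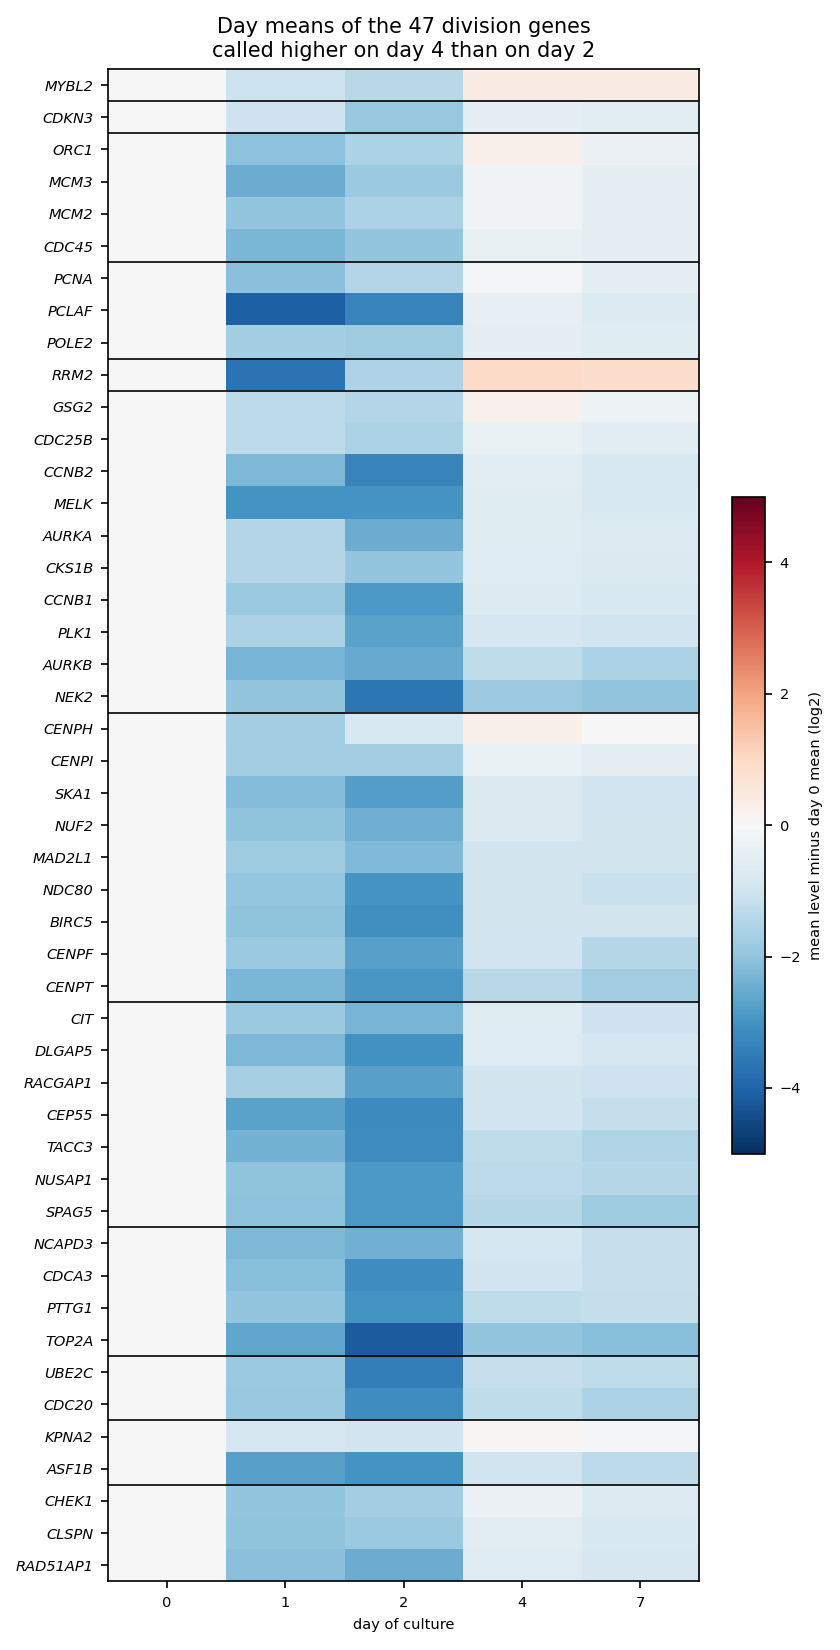
Day mean minus day 0 mean (colour, log2) of the 47 division genes that rose from day 2 to day 4, by day of culture (x axis, days), with lines between the gene lists. The genes were chosen by their rise, so their low level on day 2 describes that choice. TOP2A remained 1.99 under its day 0 level on day 4.

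Tests of 1 step against another asked whether the change from day 2 to day 4 differed from the steps around it. It lay above the change from day 1 to day 2 in 154 probe sets (0.642%) and below it in 144 (0.600%). Among the division genes 26 of 188 lay above and none below, beside 62 of 6765 for all named genes. CCNB2 had the difference 3.86 (adjusted p = 0.00199, limma), and UBE2C 3.88, TOP2A 3.76 and NEK2 3.46. These genes were lower on day 2 than on day 1 by mean and then rose, so the step changed sign. With replicate number as a block, 663 probe sets passed in place of 298. The steps share the day 2 arrays, and without day 2 replicate 2 the 298 became 50.

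Against the following step, from day 4 to day 7, the change was distinct for 32 probe sets (0.133%). By sign it lay above the following change in 31 of them and below it in 1. CCNB2 differed by 3.11 (adjusted p = 0.0310), CENPF by 2.10 and CDC45 by 1.74. From day 4 to day 7 only 14 probe sets were called, 11 higher and 3 lower, and none of the 47 division risers was among them. With replicate number as a block the count of 32 was 119. It was 0 without day 2 replicate 2, without day 4 replicate 1 or without day 7 replicate 1, and 1 to 19 without each other array of these 3 days.

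**Figure D5:**
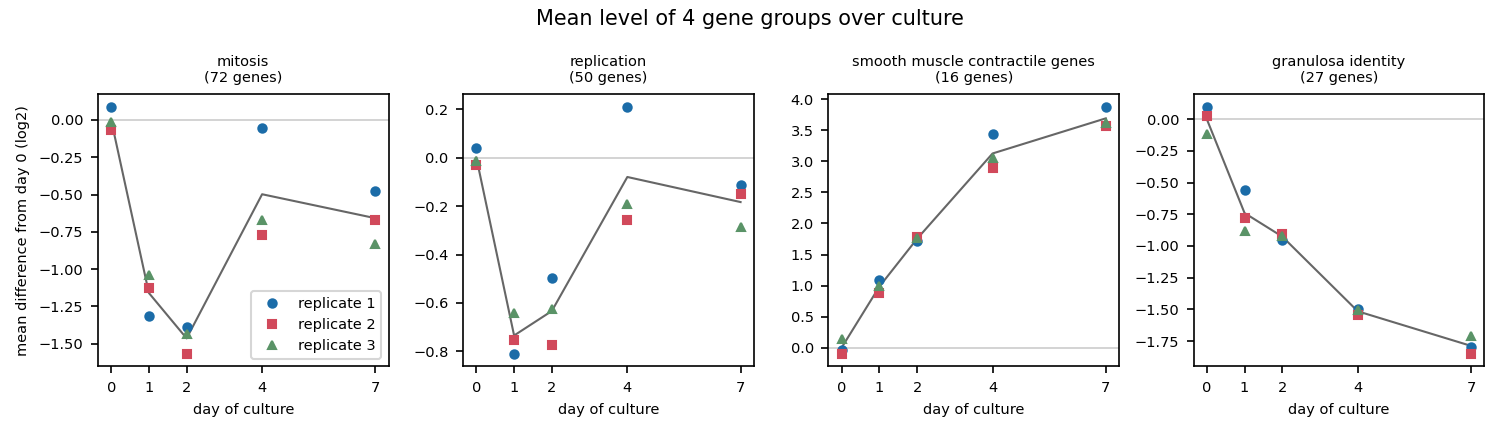
Mean difference from the day 0 mean (y axes, log2) of 72 mitosis, 50 replication, 16 smooth muscle and 27 granulosa identity genes on each of the 15 arrays against day of culture (x axis, days), with 1 symbol per replicate number and a line through the day means. Mitosis falls to between -1.57 and -1.39 on day 2 and lies between -0.77 and -0.05 on day 4, while smooth muscle genes climb and granulosa genes decline at each sampled day by their mean.

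The called genes outside the division lists whose 5 day means best followed the mean of the called mitotic entry genes were IQGAP3 (r = 0.996), PIMREG (0.977), CAND2 (0.947), APOF (0.924) and LOC100514494 (0.906). IQGAP3, a scaffold that binds the actin regulator CDC42, read 5.20, 4.73 and 5.34 on day 2 and 7.44, 6.96 and 6.78 on day 4 and rose 1.97 ± 0.23. PIMREG, a nuclear protein of mitosis, rose 1.52. With 5 day means the likeness is a description.

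Of 16 smooth muscle contractile genes measured, 11 rose and none fell, with a median of 1.35. The actin filament binder calponin 1 (CNN1) read 6.60, 6.33 and 6.92 on day 2 and 10.19, 9.32 and 10.04 on day 4. It rose 3.23 ± 0.25 (adjusted p = 2.43e-05, limma), from a day 0 mean of 4.34. TAGLN, or transgelin, rose 1.90 ± 0.23, from 11.70, 11.61 and 11.42 to 13.79, 13.37 and 13.28. Neither gene overlapped between the days.

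The regulatory myosin light chain MYL9 rose 1.83 ± 0.15, from 9.21, 9.44 and 9.70 to 11.32, 11.25 and 11.26. Smooth muscle actin (ACTA2) was already high on day 2, at 12.28, 12.42 and 12.49, and read 14.09, 13.82 and 14.00 on day 4, a rise of 1.57 ± 0.32 (adjusted p = 0.0122). Of the 11 risers, 7 were called in all 6 fits that left out 1 array, and 10 without day 4 replicate 2, where smoothelin (SMTN) was not (1.39). ACTG2, the enteric smooth muscle actin, rose 2.33 ± 0.46 but was not called without day 2 replicate 2 (2.12) or 3 (2.08). Among 28 genes of the wider actin cytoskeleton 2 rose (7.14%, beside 2.66% of all named genes). Non-muscle myosin heavy chain MYH9 rose 1.09 ± 0.11, while the cytoskeletal actins ACTB and ACTG1 changed by -0.08 and 0.04 and were not called. PDLIM1, an actin-binding adaptor, rose 1.58 ± 0.21.

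Against day 0 the smooth muscle mean was 1.71, 1.78 and 1.77 on day 2 and 3.43, 2.89 and 3.06 on day 4. Here too replicate 1 was the highest array of day 4, with same-number differences of 1.72, 1.11 and 1.29. Summed signals of markers of other cells moved in different directions. By gene, the theca list had a median of -0.28, with 1 gene called higher and 1 lower. The summed signal of 7 theca markers, ACTA2 among them, ran from 12.92 to 13.35 on day 2 and from 14.07 to 14.31 on day 4, on a log2 scale. That sum holds ACTA2 itself, while CYP17A1, the defining theca enzyme, was low and changed by 0.00 (5.05 to 5.16 on day 2). The summed signal of 12 stromal and pericyte markers ran from 13.69 to 14.07 on day 2 and from 12.26 to 13.48 on day 4. That sum is largely RGS5, at 13.38, 13.79 and 13.77 on day 2 and 11.14, 12.44 and 12.44 on day 4. The change of RGS5, -1.64 ± 0.71, was not called (adjusted p = 0.312, limma) but was with replicates 2 and 3 only, at -1.34. By gene the list went the other way from its sum: 7 of the 12 lay above 0, with a median of 0.33. THY1 and LUM rose, and none was called lower. The part of other cells in the smooth muscle result was not tested.

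Of 17 fibrillar matrix genes 1 rose (5.88%) and of 11 collagen processing genes 3 rose (27.3%), with medians of 0.29 and 0.15. Over all named genes 2.66% rose. COL5A1, a collagen that nucleates fibrils, read 8.44, 9.16 and 9.29 on day 2 and 11.39, 11.48 and 11.59 on day 4, a rise of 2.53 ± 0.21 (adjusted p = 2.8e-05), with 2 of its 6 probe sets called higher. LOXL4, a collagen cross-linking oxidase, rose 2.35 ± 0.22, from 6.67, 6.96 and 6.91 to 9.17, 9.23 and 9.17. COL15A1, a basement membrane collagen, read 7.44, 10.01 and 9.56 on day 2 and 11.55, 12.04 and 11.95 on day 4 and rose 2.84 ± 0.49. Its day 2 arrays were the widest of these genes and still lay under day 4.

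P4HA2, a collagen prolyl hydroxylase, rose 1.72 ± 0.16, and COL8A1 rose 2.64 ± 0.24. The oxidase LOXL1 rose 1.32 ± 0.34 and was not called without day 4 replicate 2 (1.08) or without any 1 of 4 other arrays (1.14 to 1.45). Lumican (LUM), a collagen-binding proteoglycan, read 3.46, 3.47 and 4.28 on day 2 and 4.29, 7.36 and 8.34 on day 4. Its change of 2.92 ± 0.70 passed (adjusted p = 0.0316), but the day 2 arrays and day 4 replicate 1 lay under the array's lower quartile and the call was lost without any 1 array but day 4 replicate 1, with 2.57 without day 4 replicate 2. Fibronectin (FN1) changed by 1.22 ± 0.36 (adjusted p = 0.0815) and was called with replicate number as a block, as was fibrillin 1 (FBN1), which changed by 2.01 ± 0.55 (adjusted p = 0.0598). No gene of 20 matrix proteases and inhibitors was called with all arrays. The urokinase plasminogen activator PLAU changed by 0.85 and was called without day 4 replicate 2, at 1.02. The collagenase MMP1 changed by 1.48 and was called with replicates 2 and 3 only, at 1.54.

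Adhesion and mesenchymal genes rose in part. The fibronectin receptor subunit ITGA5 rose 1.41 ± 0.26 and ITGA8 1.79 ± 0.33. These were the 2 called of 16 integrin and focal adhesion genes (12.5%, beside 2.66% of all named genes). Of that list 14 (87.5%) lay above 0, beside 47.2% of all named genes, with a median of 0.52. Caveolin 2 (CAV2) of that list changed by 1.10 ± 0.35 and was called without day 4 replicate 2, at 1.46, and with replicate number as a block. THY1, a surface marker of mesenchymal cells, read 5.93, 5.87 and 6.26 on day 2 and 8.27, 8.97 and 9.03 on day 4, a rise of 2.74 ± 0.24 (adjusted p = 5.27e-05). Cadherin 11 (CDH11) rose 2.50 ± 0.30. Vimentin (VIM), the mesenchymal intermediate filament, changed by 0.23 and was not called.

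Of the signaling genes, few were called. BMP4, a ligand of the bone morphogenetic protein pathway, read 6.28, 6.20 and 6.13 on day 2 and 8.95, 7.77 and 7.17 on day 4. BMP4 rose 1.76 ± 0.31 (adjusted p = 0.00485, limma), the 1 of 24 in its list (4.17%, beside 2.66% of all named genes). TGFA, a ligand of the epidermal growth factor receptor, fell by 1.74 (SE 0.22, adjusted p = 0.000424), from 7.85, 7.77 and 7.39 to 5.76, 5.96 and 6.06. Both genes had arrays that did not overlap. BMPR1B, a receptor of that list, changed by -0.96 ± 0.28 and was called lower without day 4 replicate 2, at -1.23.

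Of 18 immediate early genes, FOS fell and FOSL1 rose, 1 gene (5.56%) each way. Over all named genes 0.621% fell and 2.66% rose. FOS fell by 1.61 (SE 0.38, adjusted p = 0.0288), from 10.43, 9.83 and 9.87 to 8.08, 8.68 and 8.54. FOSL1, a late member of the same family, rose 1.70 ± 0.41, from 7.60, 6.02 and 6.42 to 9.02, 8.20 and 7.92. FOS was called in 1 of 6 fits that left out 1 array, that without day 4 replicate 2, with changes of -1.72 to -1.42 in the others. FOSL1 was called without day 2 replicate 1 or day 4 replicate 3, and its changes in the other 4 fits ran from 1.37 to 1.79. EGR1 of this list changed by -1.35 and was called lower with replicate number as a block and with replicates 2 and 3 only. ATF3 changed by 1.00 and was called higher with replicates 2 and 3 only, at 1.30. CYR61, a matrix-associated target of YAP, changed by 1.70 ± 0.45 (adjusted p = 0.0530) and was called with replicate number as a block.

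The largest rises of all named genes included ENPP1, an ectoenzyme that makes pyrophosphate, at 3.51 ± 0.31 (adjusted p = 5.27e-05), from 6.51, 6.06 and 6.39 to 9.42, 9.83 and 10.25. Matrix Gla protein (MGP), an inhibitor of calcification, rose 2.96 ± 0.50, from 4.43, 5.40 and 5.63 to 6.73, 8.52 and 9.09, the lowest of them near the lower quartile. The cytokine LIF read 6.72, 5.70 and 6.38 on day 2 and 9.03, 8.61 and 9.09 on day 4 and rose 2.65 ± 0.35. The glutamate transporter SLC1A1 rose 2.96 ± 0.37, WFDC1, a secreted protein, 2.76 ± 0.43, TMEM158 2.61 ± 0.45 and PKIA, an inhibitor of protein kinase A, 2.54 ± 0.44. Each of these 7 genes was called in all 6 fits that left out 1 array.

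Of 27 granulosa identity genes measured, 5 fell and none rose, and the median was -0.33. The receptor of luteinizing hormone (LHCGR) read 10.11, 11.01 and 11.11 on day 2 and 7.51, 7.32 and 7.98 on day 4. It fell by 3.14 (SE 0.34, adjusted p = 0.000143, limma). INHA fell by 2.14 (SE 0.35), from the day 2 levels above to 8.43, 8.23 and 7.55. Follistatin (FST), the activin antagonist, read 10.86, 10.98 and 10.63 on day 2 and 8.92, 9.19 and 8.67 on day 4 and fell by 1.89 (SE 0.21). For each the days were apart.

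AMHR2, the receptor of anti-Müllerian hormone, fell by 1.75 (SE 0.31), from 8.15, 8.66 and 8.76 to 5.82, 7.24 and 7.25. HSD17B1, which makes estradiol from estrone, fell by 1.39 (SE 0.33, adjusted p = 0.0293), from 7.37, 7.58 and 6.86 to 5.65, 6.17 and 5.84, and was called in 2 of 6 fits that left out 1 array, with changes of -1.36 to -1.23 in the other 4. Its day 0 mean was 13.52, and on day 2 its level had dropped by 6.24. The follicle-stimulating hormone receptor (FSHR) read 8.04, 8.28 and 8.39 on day 2 and 6.52, 6.78 and 7.77 on day 4, without overlap, and its change of -1.21 ± 0.42 did not pass (adjusted p = 0.158). NR5A2, a nuclear receptor of granulosa cells, changed by -1.01 ± 0.33 (adjusted p = 0.125) and was called with replicate number as a block (adjusted p = 0.00884). As a group the granulosa mean against day 0 was -0.95, -0.91 and -0.92 on day 2 and -1.50, -1.55 and -1.50 on day 4. The day 2 and day 4 arrays do not overlap, and replicate 1 of day 4 lies with the others here.

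Steroid synthesis showed 2 falls among 22 genes (9.09%, beside 0.621% of all named genes), HSD17B1 and the electron carrier ferredoxin FDX1. FDX1 fell by 1.03 (SE 0.16) and was not called without day 2 replicate 1 (-0.85) or day 4 replicate 1 (-0.94). CYP11A1, which starts steroid synthesis by cutting the cholesterol side chain, read 11.51, 11.39 and 11.38 on day 2 and 8.62, 10.72 and 10.47 on day 4. The days do not overlap, day 4 replicate 1 is far below its fellows, and the change of -1.49 ± 0.71 did not pass (adjusted p = 0.375). STAR, the cholesterol carrier of steroid-making cells, changed by -0.08, with means of 4.71 and 4.64 close to the lower quartile. The cholesterol transporter NPC1 fell by 1.22 (SE 0.21). PTGFR, the prostaglandin F receptor of luteal cells, fell by 1.95 (SE 0.51, adjusted p = 0.0492) and was called in none of the 6 fits that left out 1 array, where its change was -2.25 to -1.40.

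EPCAM, an epithelial adhesion molecule, was higher on day 2 than on any other day by mean. Its day means were 4.38 on day 0, 4.78 on day 1 and 4.20 on day 7, while day 2 read 8.96, 8.97 and 9.27 and day 4 read 4.54, 6.25 and 6.04. It fell by 3.46 (SE 0.42, adjusted p = 0.000357), and its step from day 2 to day 4 lay below that from day 1 to day 2 by 7.74 (adjusted p = 0.000833). KRT8, an epithelial keratin of the same list, read 5.61, 6.88 and 8.49 on day 2 and 5.54, 5.57 and 5.41 on day 4, with a change of -1.48 that was not called. The summed signal of the 7 ovarian surface epithelial markers, 1 of them called, ran from 9.77 to 10.60 on day 2 and from 8.40 to 9.28 on day 4. The part of other cells in the EPCAM result was not tested.

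GSTA1, a detoxifying enzyme, fell by 3.61 (SE 0.53, adjusted p = 0.00142), from 10.95, 9.26 and 8.49 to 6.73, 5.78 and 5.34. JAKMIP1 fell by 2.69 (SE 0.24) to day 4 levels of 3.36, 4.28 and 3.88, under the lower quartile. The serotonin transporter SLC6A4 fell by 2.47 (SE 0.42) and alkaline phosphatase (ALPL) by 2.30 (SE 0.34). SPINK5, a protease inhibitor of epithelia, fell by 1.96 (SE 0.26), from 8.89, 9.28 and 9.04 to 6.63, 7.80 and 6.92, after a day 0 mean of 3.95.

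No marker was called among 13 endothelial, 12 macrophage, 13 lymphocyte and granulocyte, 4 red blood cell and 7 oocyte genes. The summed macrophage signal on day 2 lay between 8.30 and 8.55, that on day 4 between 8.17 and 8.46, and 6 of its 12 markers lay under the lower quartile. For lymphocytes 9 of 13 lay under it. Genes of the interferon response (21), glycolysis and hypoxia (25) and the respiratory chain (30) had no call in either direction with all arrays. Lactate dehydrogenase A (LDHA) changed by 0.93 and was called higher without day 4 replicate 2, at 1.08. EPAS1, a hypoxia-inducible factor, changed by -2.01 ± 0.55 (adjusted p = 0.0573) and was called lower with replicate number as a block and with replicates 2 and 3 only. The endothelial factor ERG changed by 1.11 and was called with replicates 2 and 3 only, at 1.39. In lipid storage 2 of 27 rose (7.41%, beside 2.66% of all named genes). These were ACSL1, which activates fatty acids, by 1.69 ± 0.16 and the fatty acid binder FABP5 by 1.45 ± 0.27. The lipid droplet coat protein PLIN2 of that list fell by 1.08 (SE 0.28) and was called in 1 of 6 fits that left out 1 array. FABP3, another fatty acid binder, changed by 0.98 and was called without day 4 replicate 2, at 1.13. Among 29 chaperones the small heat shock protein HSPB8 rose 1.79 ± 0.27, and no other was called. That share of 3.45% is near the 2.66% of all named genes.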

How the data were processed

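Total RNA was labelled with biotin by 3′ amplification and hybridised to Affymetrix porcine genome arrays, per the labels' protocols. The deposited values are log2 intensities summarised by RMA, per the submitters' processing notes, which give no version of RMA here. They ran from 2.29 to 14.9, a range that fits this scale, and the median of an array lay between 6.40 and 6.55. With 3 arrays a day, precision is limited by their number.

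With limma 3.58.1 (R 4.3.3), lmFit and eBayes were run on the 15 arrays with day as the factor, and p-values were adjusted by Benjamini-Hochberg over 23999 probe sets. On simulated data for day 4 minus day 2, 8.96% of added log2 changes of 0.75 were recovered, 73.1% of 1.5 and 98.5% of 3. Since calls required an estimate of 1 or more, additions of 0.75 could pass only where noise enlarged them. Their low recovery follows from that rule. Among 23799 unchanged probe sets of the simulation there were 3 false calls. How far that count holds for the real arrays, where likeness by replicate number was seen, was not tested. Genes were named from the platform annotation and a table of gene names, with 1 probe set per gene, that with the highest mean. Gene names with several symbols were not used. Changes between steps were tested as contrasts of the same fit.

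Genes named are the 15 largest rises and 15 largest falls among called genes without overlap, any measured division gene, up to 6 called and 3 uncalled members of each other list, 5 genes alike over day means, and 18 genes fixed by name. The comparison, the 49 gene lists and this rule were chosen with earlier results of these data known. KRT8, CHI3L1, list members named because another fit changed their call, and the list markers without a place in the rule were chosen after their values were seen.

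Deviations from the day means of arrays with the same number on days 2 and 4 correlated at 0.634, 0.514 and 0.288. Day 2 replicate 3 correlated more with day 4 replicate 2 (0.465). The labels do not say that replicate numbers pair the arrays, so the replicate block was run as an alternative. The fit without the block is the one reported, and its SEs and p-values do not use the likeness of arrays with the same number.

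Alternatives changed 1 choice at a time. The scaling alternatives were another round of quantile normalization, a common median and cyclic loess. The others were a filter on the dimmest 40%, trended and robust eBayes, the replicate block, no minimum change, a fit to the compared days, array weights (whose estimation stopped before convergence), replicates 2 and 3 only, gene means over probe sets, and omission of single arrays.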

Additional observations from a re-analysis of the deposited data

Results flagged for a closer look

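The results here were marked because the change from day 2 to day 4 differed from the change in a neighbouring step by a contrast of the same limma fit. No group has more than 3 arrays, so no single array was tested as standing apart from its group.

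Against the step from day 1 to day 2, 298 probe sets differed. The genes named by the rule with the largest positive differences were UBE2C (3.88), CCNB2 (3.86), TOP2A (3.76) and FOSL1 (3.75). Among the genes named by the rule, the largest negative differences were those of EPCAM (-7.74), KRT19 (-4.88), LHCGR (-4.82) and SPINK5 (-4.23). CHI3L1, which is not among them, differed by -4.95 (adjusted p = 0.0340, limma). KRT19, an epithelial keratin, read 7.65, 9.21 and 8.58 on day 2 and 6.97, 8.40 and 7.66 on day 4, which overlap, and its change from day 2 to day 4 was -0.80 and not called (adjusted p = 0.627). EPCAM, SPINK5 and KRT19 each had the highest mean of the 5 days on day 2, as did CHI3L1, at 9.81. A large negative difference favours genes that were high on day 2, so these peaks describe the choice.

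Against the step from day 4 to day 7, 32 probe sets differed, among them CCNB2 (3.11), CENPF (2.10), COL5A1 (2.04) and CDC45 (1.74).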

How the results depend on the processing

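The count of 608 probe sets called on day 4 against day 2 stayed within 1.5 times under the scaling alternatives, the filter on dim probe sets, trended eBayes, array weights, replicates 2 and 3 only and the replicate block (778), and ran from 419 to 653 without single arrays. It was 371 with only the days compared and 1002 with no minimum change. The 298 of the step against the step before became 2261 with array weights, 90 with only the days compared, 663 with the replicate block and 1592 with replicates 2 and 3 only, and 50 to 532 without single arrays. The 32 of the step against the step after became 881 with array weights, 17 with a common median or cyclic loess, 16 with a second quantile normalization, 0 with only the days compared, 119 with the replicate block and 141 with replicates 2 and 3 only, and 0 to 19 without single arrays. The 3811 called on day 4 against day 0 became 7360 with no minimum change. The cause of these moves was not tested. No named gene went from a call in 1 direction to a call in the other. Uncalled changes near 0 could change sign. The median of the 5 G1 cyclins and kinases was -0.08 in the main fit and 0.02 without day 4 replicate 2. Of 353 named genes 105 were called, 82 of them in all 6 fits without 1 array. The replicate block added 11 calls among the named genes and removed none. Values near the lower quartile limit what low genes can show, and 3 arrays a day limit the precision of each change.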
